A study of Mus musculus with 8 samples.

Results

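The genes described here encode the mouse ATG8 proteins and the ATG4 proteases that process them. The 9 members were chosen by symbol, with earlier results of these data known. They were Map1lc3a, Map1lc3b, Gabarap, Gabarapl1 and Gabarapl2 for the ATG8 proteins, and Atg4a, Atg4b, Atg4c and Atg4d for the proteases. All 9 were among the 23366 gene symbols of the count table, each taken as its transcript row with the most reads, and all 9 passed the filter on low counts that left 14418 genes for testing. The libraries came from mouse embryonic fibroblasts (MEFs), primary connective tissue cells of the C57BL/6 strain at passages 3 to 5. WT cells and cells labelled kdm3a KO, a knockout of a histone H3K9 demethylase gene, were each sequenced fed (0 h, DMEM with 10% FBS) and after 12 h of glucose starvation (glucose-free DMEM with 10% dialyzed FBS). Each of the 4 groups held 2 libraries. Starvation below means the loss of glucose together with the dialyzed serum, the change of medium and the 12 h, which the design does not separate. The sources used here do not give the knockout allele, the number of embryos or whether replicates were separate cultures. The p-values therefore reflect the spread between these libraries alone, which may be technical.

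ATG8 proteins are small ubiquitin-like proteins that mark the autophagosome, the double membrane that encloses cytoplasm for delivery to the lysosome. An ATG4 protease trims each new ATG8 protein to expose a glycine, the enzymes ATG7, ATG3 and the ATG12–ATG5–ATG16L1 complex join that glycine to a membrane lipid, and ATG4 can later cut the protein off again. The LC3 branch (Map1lc3a, Map1lc3b) and the GABARAP branch (Gabarap, Gabarapl1, Gabarapl2) recruit cargo receptors and fusion factors through a shared binding groove. The libraries measured mRNA only. Processing, lipid attachment and autophagic flux were not measured.

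Library totals ran from 38407520 to 53602289 counts. CPM below are read counts per 1000000 reads of the TMM-adjusted library, and TMM scaling factors were 0.79 to 0.794 in starved WT, 0.985 and 0.987 in starved KO-labelled, 1.09 in fed WT and 1.18 in fed KO-labelled libraries. Scaling therefore matters: with plain library totals the median change of all genes moved from -0.17 to -0.63 for starvation in WT, from -0.02 to -0.27 for starvation in KO-labelled cells, from -0.06 to 0.05 between the fed groups, from 0.07 to 0.39 between the starved groups and from 0.1 to 0.29 for the difference of the responses. The share of calls that were higher went from 45% with TMM to 28.2% with totals, from 49.4% to 37%, from 46.4% to 55.1%, from 52.6% to 67.4% and from 52.9% to 67% in the same order. Kdm3a, the targeted gene, stood in fed libraries at 56.1 and 56.4 CPM for WT, against 55.2 and 55.4 CPM for KO-labelled (-0.02 ± 0.043, adjusted p = 0.619), and in starved ones at 176 and 185 against 65.4 and 66.7 CPM (-1.45 ± 0.041). Counts over a whole transcript do not show the loss of an exon, and because the fed libraries did not differ by the test, those of the knockout are called KO-labelled. Xist was at 0.939 to 1.54 CPM in WT and 869 to 1370 CPM in KO-labelled libraries, and the Y-linked gene Ddx3y at 27.3 to 37.9 CPM and at 0 to 0.0222 CPM, so genotype and sex of the cells cannot be told apart in any comparison between the labels. All 9 fibroblast markers were tested, and their summed level was 19600 to 21000 CPM in WT but 10700 to 10800 CPM in fed and 13100 to 13200 CPM in starved KO-labelled libraries. That sum hides members that went opposite ways. From fed to starved WT cells the mean level of Col1a1 went from 4662 to 247 CPM, Col1a2 from 6110 to 367, Col3a1 from 621 to 28.4, Pdgfra from 30.7 to 5.73 and Pdgfrb from 378 to 199.96, while Vim went from 4397 to 11359, Fn1 from 3557 to 8086 and Thy1 from 101 to 164 CPM. Fed KO-labelled cells had 264 CPM of Col1a2 and 6.25 of Thy1, but 51.4 of Dcn against 2.41 in fed WT. Of 7 macrophage and blood markers 6 were in the table, summing to 19 to 19.4 CPM in fed WT and 7 to 10.2 CPM in starved WT. In KO-labelled libraries they summed to 21.5 to 22.1 CPM when fed and 53.2 to 54.3 CPM when starved, of which Cd68 gave 40.7 and 40.9 CPM, while Ptprc, Lyz2 and Hbb-b1 were under 1 CPM. From fed to starved KO-labelled cells the mean of Cd68 went from 3.49 to 40.8 CPM and that of Csf1r from 0.418 to 6.23 CPM. That of Cd14 went the other way, from 17.4 to 6.29 CPM. The 6 endothelial markers summed to 52.9 to 54.9 CPM in starved WT, where Kdr gave 52.8 and 54.8 CPM, and to at most 5.5 CPM elsewhere, with Pecam1, Cdh5, Tek, Tie1 and Emcn under 1 CPM. The 6 neural and glial markers summed to 74.6 to 75.8 CPM in fed WT and 37.9 to 53.2 CPM in the other groups, the 6 epithelial markers to at most 2.82 CPM and the 6 muscle markers to at most 6.71 CPM. The part of other cell types in the results below was not tested, and in bulk RNA fewer cells of a type and less RNA per cell cannot be told apart.

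Gabarap was the most abundant ATG8 mRNA in every group. Levels of different genes are compared per kilobase of transcript, as CPM divided by the length of the matching GENCODE transcript, which may differ from the model the authors counted on. In fed WT cells Gabarap stood at 156 ± 3.2 CPM per kb (mean ± SD, n = 2 libraries here and below), Map1lc3b at 69.2 ± 0.83, Gabarapl1 at 58.3 ± 1.2, Gabarapl2 at 36.6 ± 1.6 and Map1lc3a at 35.7 ± 0.66. The libraries of the last 2 overlapped, and the others were apart. In fed KO-labelled cells the order was Gabarap (141 ± 0.071 CPM per kb), Map1lc3a (52.2 ± 2.3), Map1lc3b (51.7 ± 0.77), Gabarapl1 (39.3 ± 1.1) and Gabarapl2 (37.3 ± 0.28), with overlapping libraries for Map1lc3a and Map1lc3b. In starved WT cells the order was Gabarap (285 ± 7.6), Map1lc3b (124 ± 0.035), Gabarapl1 (114 ± 1.6), Gabarapl2 (44.9 ± 4.7) and Map1lc3a (42.7 ± 5.1), the last 2 again overlapping. In starved KO-labelled cells Map1lc3b (55.7 ± 0.08 CPM per kb) stood below Gabarap (248 ± 1.2), Map1lc3a (80.8 ± 0.26) and Gabarapl1 (76.5 ± 0.61) and above Gabarapl2 (31.4 ± 0.59), with no overlap between neighbours.

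ATG4 mRNAs were less abundant than ATG8 mRNAs in every library. Per kilobase, the 5 ATG8 genes together exceeded the 4 ATG4 genes 17.2- and 17.3-fold in the fed and 26- and 24.8-fold in the starved libraries of WT cells. In KO-labelled cells they did so 13.1- and 12.3-fold when fed and 17.5- and 16.9-fold when starved. This ratio is formed within a library and does not depend on scaling; starved libraries were higher than fed ones in both genotypes. Atg4b, the family's most active protease on LC3B, led the ATG4 genes in all 4 groups, from 8.09 ± 0.39 CPM per kb in fed WT to 13 ± 0.16 in starved KO-labelled cells. Atg4c was lowest in all 4 groups, at 2.36 to 2.76 CPM per kb. Atg4a ranked second per kilobase in both fed groups (6.08 ± 0.16 in WT, 6.48 ± 0.27 in KO-labelled). That rank rests on transcript lengths of 2202 bases for Atg4a and 5951 for Atg4d. In CPM without length Atg4d was above Atg4a in every group, at 21.9 against 13.4 in fed WT and 27.6 against 14.3 in fed KO-labelled cells. Per kilobase, the libraries of Atg4a and Atg4d overlapped in starved WT (5.4 ± 0.55 against 5.02 ± 0.26). In starved KO-labelled cells Atg4d (8.19 ± 0.23) was above Atg4a (5.01 ± 0.42).

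**Figure D1:**
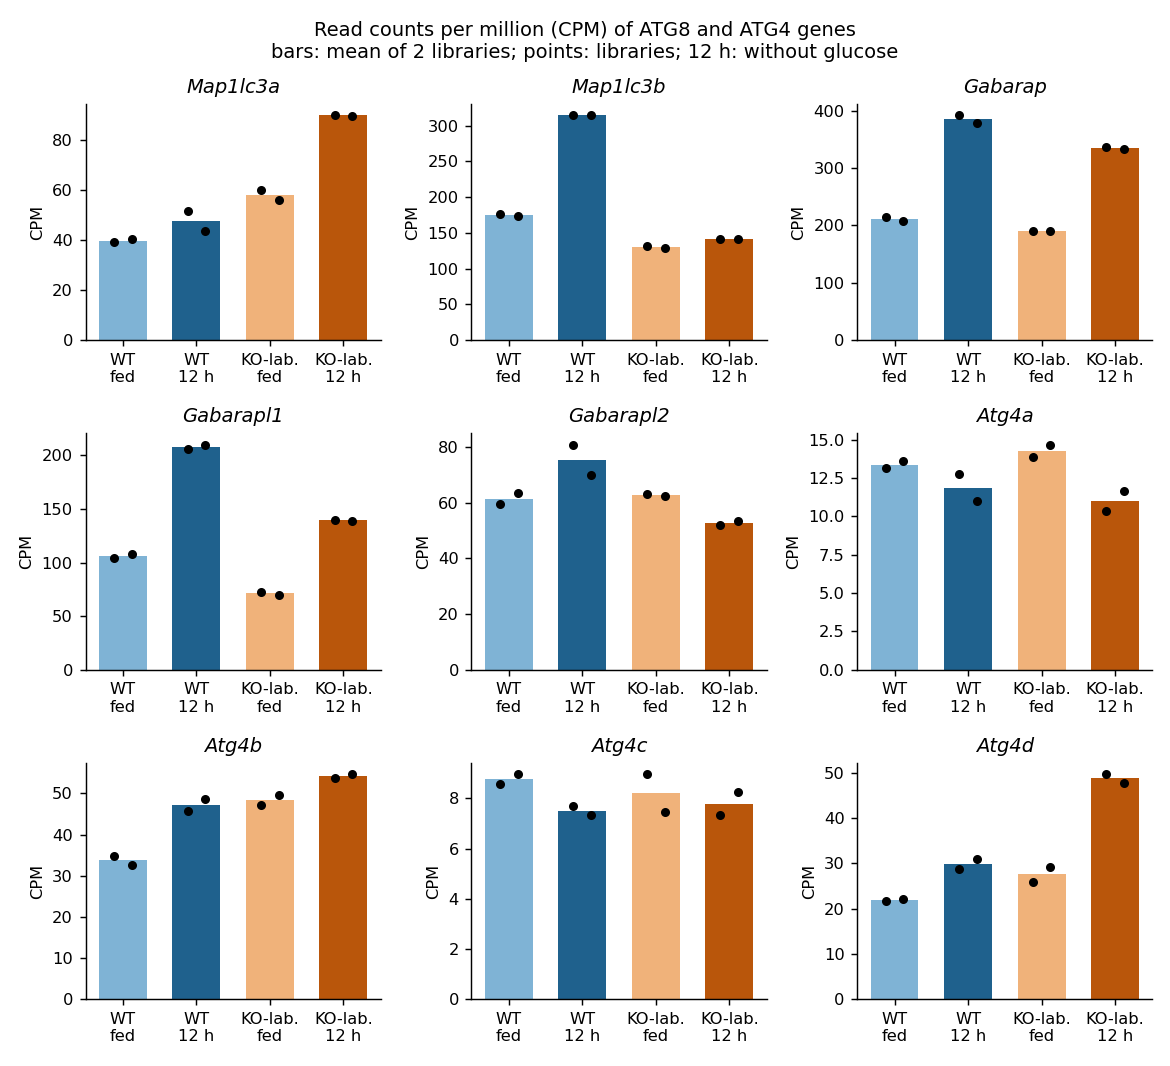
Level of each member in CPM (vertical axis, from 0, a separate scale for each gene) in the 4 groups of 2 libraries; bars are means and points are libraries. Map1lc3b reached 315 CPM in both starved WT libraries and 141 CPM in both starved KO-labelled libraries, while Gabarap and Gabarapl1 were higher in the starved than in the fed libraries of both labels.

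The first comparison asked how glucose starvation changed these genes in WT cells. All 5 ATG8 genes and 2 of the 4 ATG4 genes rose, and none of the 9 fell (edgeR's quasi-likelihood test, adjusted p below 0.05; 0 fell at an unadjusted p below 0.05, and 0 with DESeq2). With library totals in place of TMM, 3 rose and 4 fell, beside 3397 genes called higher and 8629 lower of the 14418 tested. With TMM 36.7% of all genes tested were called higher and 44.8% lower. The median change of the 9 members was 0.45 on the log2 scale, against -0.17 over all genes.

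Gabarapl1, a stress-responsive gene of the GABARAP branch, had 105 and 108 CPM in fed WT libraries and 206 and 210 CPM in starved ones. The starved libraries stood well apart from the fed ones, a log2 change of 0.97 ± 0.037 (± SE; adjusted p = 3.62e-16). Gabarap, the founding member of its branch, went from 214 and 208 CPM to 393 and 378 CPM (0.87 ± 0.031; adjusted p = 1.31e-16). Map1lc3b, which encodes the LC3B protein used as the standard autophagosome marker, went from 177 and 174 CPM to 315 CPM in both starved libraries (0.85 ± 0.032; adjusted p = 3.07e-16). These 3 genes rose by 1.96-, 1.83- and 1.8-fold and were also called higher with library totals, at 0.52, 0.41 and 0.39.

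Map1lc3a and Gabarapl2 rose less. Map1lc3a, the other LC3 gene, was at 39.2 and 40.3 CPM when fed and at 51.5 and 43.5 CPM when starved (0.26 ± 0.063; adjusted p = 0.000866), and Gabarapl2, known as GATE-16, went from 59.4 and 63.3 to 80.8 and 69.8 CPM (0.3 ± 0.057; adjusted p = 6.5e-05). The fed and starved libraries did not overlap, but starved replicate 1 was the higher one for both genes, and without replicate 2 the changes became 0.45 and 0.48. Their direction rests on the scaling: with library totals Map1lc3a was called lower (-0.2) and Gabarapl2 was called lower (-0.16).

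Of the proteases, Atg4b rose from 34.9 and 32.6 CPM to 45.7 and 48.6 CPM (0.48 ± 0.056; adjusted p = 9.02e-08) and Atg4d, linked to the removal of ATG8 proteins from membranes, from 21.7 and 22.1 to 28.8 and 31 CPM (0.45 ± 0.071; adjusted p = 6.25e-06). With library totals neither was called, at 0.02 and -0.01. The exons of Atg4d overlap those of Kri1 on the opposite strand over 792 bases in the GENCODE annotation, and strand use in the counting is not given, so reads of the pair cannot be told apart there; Kri1 rose by 1.05 ± 0.065. Atg4a, an X-linked protease gene whose product prefers GABARAP proteins, was at 13.1 and 13.6 CPM when fed and 12.7 and 11 CPM when starved (-0.17 ± 0.1; adjusted p = 0.13). Atg4c was at 8.57 and 8.95 CPM when fed and 7.68 and 7.33 CPM when starved (-0.22 ± 0.13; adjusted p = 0.112). In neither gene did the fed and starved libraries overlap, yet these changes were within the error of the fit; with library totals both were called lower (-0.63 and -0.68).

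The same starvation was then followed in KO-labelled cells. Here 4 of the 5 ATG8 genes and 2 of the 4 proteases rose, and Gabarapl2 and Atg4a fell, 6 higher and 2 lower of 9 beside 39.4% higher and 40.3% lower among all genes. The members' median was 0.17 and that of all genes -0.02. Library totals gave 4 higher and 4 lower, beside 4261 genes called higher and 7242 lower of all tested. DESeq2 or a minimum of 5 CPM gave 4 higher and 2 lower. DESeq2 called 10887 of all genes in either direction, and all-gene calls at the 5 CPM minimum were not counted.

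Gabarapl1 went from 72.9 and 70 CPM in the fed to 140 and 138 CPM in the starved KO-labelled libraries (0.96 ± 0.037; adjusted p = 6.53e-16), and Gabarap from 191 CPM in both to 336 and 334 CPM (0.81 ± 0.031; adjusted p = 4.83e-16). Map1lc3a rose from 59.9 and 56.2 to 90.1 and 89.7 CPM (0.63 ± 0.055; adjusted p = 1.06e-09). All 3 were called higher with library totals too, at 0.71, 0.56 and 0.37. Map1lc3b moved little, from 132 and 129 CPM to 141 CPM in both (0.11 ± 0.032; adjusted p = 0.00449). DESeq2 (0.07) and a stricter minimum of 5 CPM (0.01) ended that call, and with library totals Map1lc3b was called lower (-0.15). It was 0.05 and not called without either starved WT library, although neither is in this comparison. Gabarapl2 fell from 62.9 and 62.2 CPM to 51.9 and 53.3 CPM (-0.25 ± 0.055; adjusted p = 0.000339; -0.51 with library totals).

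Atg4d had the largest rise among the proteases of KO-labelled cells, from 25.9 and 29.2 CPM to 49.7 and 47.8 CPM (0.82 ± 0.063; adjusted p = 9.62e-11; 0.57 with library totals), where Kri1, with which it shares exon sequence, rose by 1.22 ± 0.061. Atg4a fell from 13.9 and 14.7 CPM to 10.4 and 11.7 CPM (-0.37 ± 0.097; adjusted p = 0.00164; -0.62 with library totals). Atg4b was called higher, from 47.2 and 49.7 to 53.8 and 54.7 CPM (0.16 ± 0.051; adjusted p = 0.00619). It was no longer called by DESeq2 (0.13), above a minimum of 5 CPM (0.06), without fed KO-labelled replicate 1 (0.13) or with library totals (-0.09). Atg4c, at 8.96 and 7.44 CPM when fed and 7.34 and 8.24 CPM when starved, had overlapping groups (-0.08 ± 0.12; adjusted p = 0.562), and was called lower with library totals (-0.33).

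**Figure D2:**
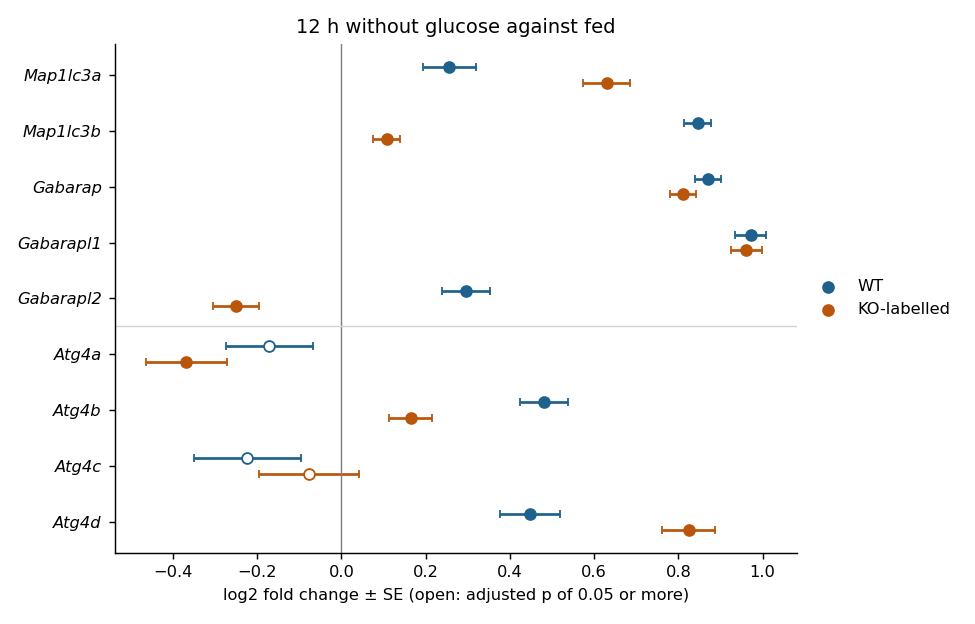
Log2 fold change of each member after 12 h without glucose (horizontal axis) in WT and KO-labelled cells, with bars of 1 SE from the edgeR fit and open points for an adjusted p of 0.05 or more. The 2 values lie close together for Gabarap (0.87 and 0.81) and Gabarapl1 (0.97 and 0.96) and apart for Map1lc3b (0.85 and 0.11) and Gabarapl2 (0.3 and -0.25).

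Whether the 2 starvation responses differed was tested as an interaction of genotype and starvation, the KO-labelled response minus the WT response. Over all genes 34.1% were called higher and 30.4% lower with TMM, and 6306 and 3099 genes with library totals. Of the 9 members, 2 had a higher and 3 a lower response in KO-labelled cells with TMM. These counts were 4 and 2 with library totals. They also moved without either starved WT library, in fits for which no all-gene share was computed. Map1lc3b differed most, by -0.74 ± 0.045 (adjusted p = 8.25e-12), then Gabarapl2 by -0.55 ± 0.079 (adjusted p = 3.71e-06) and Atg4b by -0.32 ± 0.076 (adjusted p = 0.00107). Atg4d and Map1lc3a responded more strongly, by 0.38 ± 0.095 (adjusted p = 0.00155) and 0.37 ± 0.084 (adjusted p = 0.000562).

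With library totals Map1lc3b and Gabarapl2 were still called lower (-0.54 and -0.35) and Map1lc3a and Atg4d higher (0.57 and 0.58), while Atg4b was not called (-0.12). Without starved WT replicate 2 the Map1lc3a difference was 0.12 and not called, and without starved WT replicate 1 that of Atg4d was 0.2 and not called and that of Atg4b was -0.49. For Gabarapl1 the difference was -0.01 ± 0.052 (adjusted p = 0.879; 95% interval -0.12 to 0.1) and for Gabarap -0.06 ± 0.043 (adjusted p = 0.244; 95% interval -0.15 to 0.03). Neither was called, but both were called higher with library totals (0.19 and 0.14), and both were called lower without starved WT replicate 1 (-0.15 and -0.16) or replicate 2 (-0.13 and -0.22). Gabarap was also called lower with DESeq2 (-0.16) and with a minimum of 5 CPM (-0.13). Atg4a (-0.2 ± 0.14, 95% interval -0.49 to 0.1) and Atg4c (0.15 ± 0.17, 95% interval -0.22 to 0.51) had wide intervals at their low counts, and Atg4a was called lower without starved WT replicate 2 (-0.43).

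Ratios of 2 members within a library do not depend on scaling and show the same unequal movement. Map1lc3b reads per Gabarap read were 0.826 and 0.836 in fed WT and 0.802 and 0.832 in starved WT libraries. In KO-labelled cells they were 0.692 and 0.677 when fed and 0.419 and 0.421 when starved. The starved KO-labelled libraries were thus below all others, while fed and starved WT libraries overlapped. Map1lc3b reads per Map1lc3a read went from 4.5 and 4.31 to 6.11 and 7.24 in the WT libraries and went from 2.21 and 2.3 down to 1.57 in both KO-labelled starved libraries. Gabarapl1 reads per Gabarapl2 read went up in both labels, from 1.76 and 1.7 to 2.55 and 3.01 in WT and from 1.16 and 1.13 to 2.7 and 2.6 in KO-labelled libraries. Atg4d reads per Atg4b read stayed at 0.622 to 0.677 in all 4 WT libraries and went from 0.55 and 0.587 to 0.924 and 0.874 in KO-labelled libraries.

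**Figure D3:**
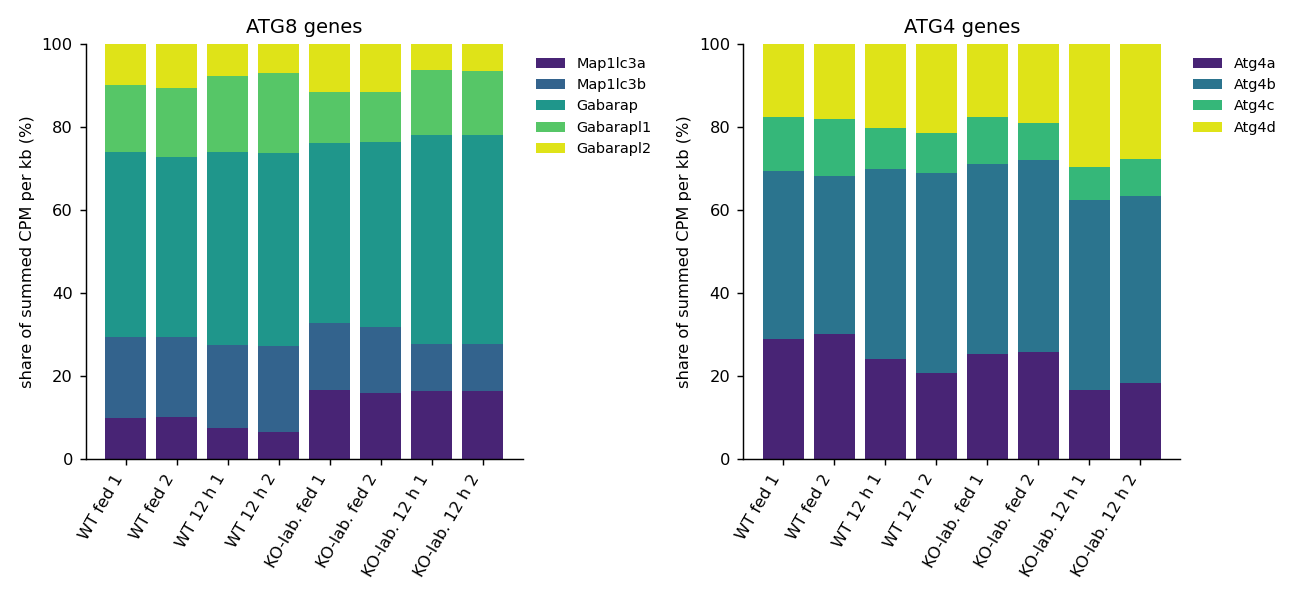
Share of each member in the summed level of its family, in CPM per kb and percent (vertical axis), for each of the 8 libraries, with ATG8 genes on the left and ATG4 genes on the right. The Map1lc3b share was 19.3 to 20.7% in the WT libraries, 16% and 16.1% in fed and 11.3% in starved libraries of KO-labelled cells, and Atg4d made up 27.7% and 29.6% of ATG4 in the latter.

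The genotypes were then compared directly, first with nutrients present. Of the 9 members 3 were higher and 3 lower in fed KO-labelled cells, where 34.5% of all genes were called higher and 39.8% lower. Gabarapl1 (106 ± 2.2 CPM in WT, 71.5 ± 2.1 in KO-labelled; -0.57 ± 0.038, adjusted p = 1.35e-11) and Map1lc3b (175 ± 2.1 and 131 ± 2; -0.42 ± 0.032, adjusted p = 1.37e-10) were lower. Map1lc3a (39.8 ± 0.74 and 58 ± 2.6 CPM; 0.55 ± 0.059, adjusted p = 4.2e-08), Atg4b (33.8 ± 1.6 and 48.4 ± 1.8; 0.52 ± 0.054, adjusted p = 2.27e-08) and Atg4d (21.9 ± 0.26 and 27.6 ± 2.3; 0.33 ± 0.068, adjusted p = 0.000197) were higher. For each of these 5 genes the 2 labels did not overlap, and the direction and call were the same with library totals. Gabarap was lower by a small margin (211 ± 4.3 and 191 ± 0.096 CPM; -0.14 ± 0.031, adjusted p = 0.000343). It was -0.08 without starved WT replicate 1 or 2, which are not in this comparison, and with only the 4 fed libraries fitted. With library totals it was not called (-0.03). Gabarapl2 differed by 0.03 ± 0.055 (adjusted p = 0.649; 95% interval -0.09 to 0.14; called higher with library totals, 0.14), Atg4a by 0.09 ± 0.096 (adjusted p = 0.399) and Atg4c by -0.09 ± 0.12 (adjusted p = 0.501).

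Without glucose the 2 LC3 genes differed in opposite directions. Map1lc3b was 2.23-fold lower in KO-labelled cells (315 ± 0.087 CPM in WT and 141 ± 0.2 in KO-labelled; -1.16 ± 0.032, adjusted p = 2.75e-18) and Map1lc3a 1.89-fold higher (47.5 ± 5.7 and 89.9 ± 0.29 CPM; 0.92 ± 0.059, adjusted p = 5.26e-12). Of the 9 members 3 were higher and 4 lower, beside 41.9% and 37.7% of all genes. With library totals 5 were higher and 3 lower, beside 7817 and 3778 of all genes tested. Gabarapl1 was lower (208 ± 2.8 and 139 ± 1.1 CPM; -0.58 ± 0.036, adjusted p = 2.91e-12), as was Gabarapl2 (75.3 ± 7.8 and 52.6 ± 1; -0.52 ± 0.057, adjusted p = 3.62e-08). Atg4d was higher (29.9 ± 1.6 and 48.7 ± 1.4 CPM; 0.71 ± 0.066, adjusted p = 2.7e-09). These 5 calls held with library totals, at -0.84, 1.24, -0.26, -0.2 and 1.02 in the order named. Gabarap was called lower (-0.2 ± 0.03, adjusted p = 3.72e-06) and turned to a called 0.12 with library totals. Atg4b was called higher (0.2 ± 0.054, adjusted p = 0.00184), but not without starved WT replicate 1 (0.09) or with DESeq2 (0.14), and was 0.52 with library totals. Atg4a (-0.11 ± 0.1, adjusted p = 0.358; called lower at -0.27 without starved WT replicate 2) and Atg4c (0.06 ± 0.13, adjusted p = 0.692; called higher at 0.37 with library totals) were not called.

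**Figure D4:**
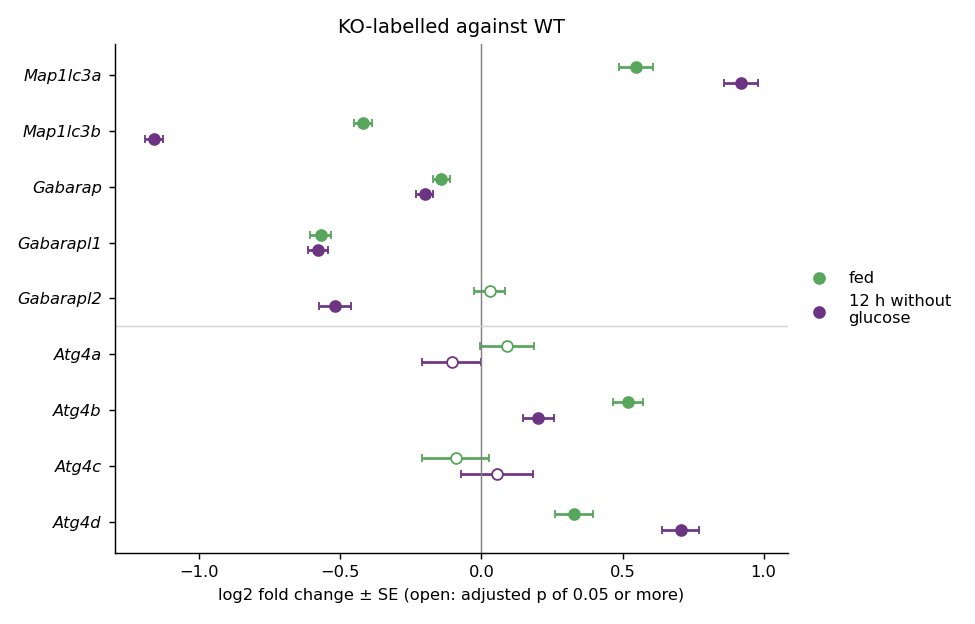
Log2 fold change of each member in KO-labelled against WT cells (horizontal axis), fed and after 12 h without glucose, with bars of 1 SE from the edgeR fit and open points for an adjusted p of 0.05 or more. Map1lc3b lies at -0.42 fed and -1.16 starved, Map1lc3a at 0.55 and 0.92, and Gabarapl1 at -0.57 and -0.58.

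The sequences before the transcription starts of 4 ATG8 genes are shown because the starvation response differed between the labels for 2 of them (Map1lc3b, Gabarapl2) and was not called different for the other two (Gabarap, Gabarapl1). The latter rests on the processing: as given above, both were called lower without either starved WT library and higher with library totals, and Gabarap lower with DESeq2 and a minimum of 5 CPM. They are the 250 bases upstream of the start given by RefSeq on build GRCm38.p6, plus strand, 5′ to 3′, with each CG dinucleotide in capitals. The counted reads were aligned to another build, and nothing was measured at these sequences. The 4 genes were picked after their responses were known, so a contrast between their sequences tests nothing. Atg4b and Atg4d, whose responses were also called different, have windows that are not printed here.

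Map1lc3b, chr8:121590188-121590437: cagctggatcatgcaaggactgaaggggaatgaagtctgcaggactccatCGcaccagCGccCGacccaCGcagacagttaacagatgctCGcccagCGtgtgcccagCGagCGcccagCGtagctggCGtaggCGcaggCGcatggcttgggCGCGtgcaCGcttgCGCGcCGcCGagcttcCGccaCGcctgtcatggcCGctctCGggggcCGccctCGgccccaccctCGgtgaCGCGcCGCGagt
Gabarapl2, chr8:111940453-111940702: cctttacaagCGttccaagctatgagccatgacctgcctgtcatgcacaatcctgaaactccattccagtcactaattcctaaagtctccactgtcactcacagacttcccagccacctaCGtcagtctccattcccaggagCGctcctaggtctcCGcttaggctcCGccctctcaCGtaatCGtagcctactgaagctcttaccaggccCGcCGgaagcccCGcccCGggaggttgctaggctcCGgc
Gabarap, chr11:69991120-69991369: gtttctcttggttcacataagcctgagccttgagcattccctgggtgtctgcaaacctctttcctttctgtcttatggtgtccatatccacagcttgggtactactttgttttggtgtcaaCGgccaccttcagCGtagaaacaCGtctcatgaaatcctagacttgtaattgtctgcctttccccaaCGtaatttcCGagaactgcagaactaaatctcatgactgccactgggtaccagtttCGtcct
Gabarapl1, chr6:129532942-129533191: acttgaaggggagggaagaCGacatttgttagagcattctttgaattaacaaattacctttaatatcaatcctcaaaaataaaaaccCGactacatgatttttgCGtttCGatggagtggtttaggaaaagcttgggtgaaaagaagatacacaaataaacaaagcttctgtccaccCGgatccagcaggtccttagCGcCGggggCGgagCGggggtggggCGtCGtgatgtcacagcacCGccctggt

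The Map1lc3b sequence holds 30 CG dinucleotides and is 69.6% G and C, and the Gabarapl2 sequence holds 12 and is 57.2% G and C. The Gabarap and Gabarapl1 sequences hold 6 and 12, at 46.4% and 46.8%. The median over 32851 such windows, not limited to tested genes, was 6 CG dinucleotides and 52.4%. Of 8301 tested genes with a single window, 4205 had 60% or more G and C and 1246 had under 50%. Windows were found for 8 of the 9 members, 10 windows in all, and no entry for Map1lc3a. The E-box core CACGTG that the MiT/TFE factors bind (in 7.15% of all 300-base windows around a start), the FoxO core GTAAACA (3.65%) and the C/EBP-ATF core TTGCATCA (0.895%), read on both strands, occurred in 0 of the 10 member windows, which says only that these letters are not there.

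Copies elsewhere in the genome bear on some values. In the GENCODE transcripts, Map1lc3b shares stretches of 360 to 378 bases at 96.5 to 99.7% identity with 4 processed pseudogenes and Gabarapl2 stretches of 349 to 352 bases with 3. Atg4a shares 2115 bases at 99.3% identity with Atg4a-ps and 508 bases with Syt6. How reads with several matches were counted is not given, so the levels of these 3 genes are uncertain to that extent. No other gene shared 300 bases at 95% identity with Map1lc3a, Gabarap, Atg4b or Atg4c. Gabarapl1 shares 379 bases at 100% identity with 1700101I11Rik, a gene on the opposite strand with group means of 3.22 to 11.3 CPM. The largest overlap found between single exons of that pair was 47 bases. Map1lc3b exons overlap those of Zcchc14 by 58 bases on the opposite strand. From fed to starved cells the mean of Zcchc14 went from 122 to 168 CPM in WT and from 102 to 93.6 CPM in KO-labelled cells. Strand use in the counting is not given, so reads of these pairs cannot be told apart there.

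Across the 8 libraries Gabarap and Gabarapl1 were the 2 members most alike (Pearson r = 0.94 of log2 CPM), followed by Map1lc3a with Atg4d (0.91), while Atg4a ran against Gabarap (-0.8). Among all tested genes the most alike were Thop1 and Emd for Gabarapl1 (r = 0.9996 and 0.9995), Wsb1 and Asns for Gabarap (0.9993 each), and Rabggtb and Nbn for Map1lc3b (0.9988 each). For Map1lc3a they were Kcnt2 and Lrrc8a (0.9947 and 0.9924), for Atg4d Lpin3 and Gfm1 (0.9943 and 0.9941), and for Atg4b Itsn2 and Optn (0.9962 and 0.9936), of which Optn encodes an autophagy receptor that binds ATG8 proteins. The values were lower for Gabarapl2 (Hist1h4d and Vps54, 0.9786 and 0.9676), Atg4a (Vangl2 and Tspan3, 0.9669 and 0.9425) and Atg4c (Tmem169 and Vpreb1, 0.9338 and 0.9245). These are descriptions over 8 libraries that share 4 groups, picked as the highest among all genes tested. Some of the genes named had few reads per library: Hist1h4d 0 to 16, Vpreb1 2 to 29, Tmem169 2 to 35 and Vangl2 10 to 99. Kcnt2 had 4 and 0 reads in the fed WT libraries. The part of count noise in these values was not tested.

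Of 7 genes of the machinery that attaches ATG8 proteins to membrane, 5 rose in WT cells and 6 in KO-labelled cells. None fell by edgeR (0 at an unadjusted p below 0.05 and 0 with DESeq2 in each). With library totals, however, 3 rose and 2 fell in WT and 3 rose and 1 fell in KO-labelled cells. Beside them, 36.7% of all genes were called higher and 44.8% lower in WT with TMM, and 39.4% and 40.3% in KO-labelled cells. With library totals 3397 genes were called higher and 8629 lower in WT, and 4261 and 7242 in KO-labelled cells. Atg3, the conjugating enzyme itself, went from 45.3 ± 0.57 to 126 ± 1.2 CPM in WT (1.48 ± 0.047) and Atg16l1, the subunit that targets the complex to membrane, from 17.4 ± 0.54 to 52 ± 0.18 CPM (1.58 ± 0.059). Atg12, the ubiquitin-like part of the complex, went from 33.9 ± 1 to 85.5 ± 0.071 CPM in WT (1.33 ± 0.048). In KO-labelled cells Atg12 went from 35 ± 0.25 to 75.7 ± 2.7 CPM (1.11 ± 0.046), Atg3 from 45.8 ± 2.5 to 73.3 ± 2.6 CPM (0.68 ± 0.046) and Atg16l1 from 30.5 ± 0.45 to 54.1 ± 1.4 CPM (0.82 ± 0.052). The response was lower in KO-labelled cells for 4 of the 7, among them Atg3 (-0.8 ± 0.066) and Atg16l1 (-0.76 ± 0.079), and higher for none (0 at an unadjusted p below 0.05 and 0 with DESeq2); with library totals it was lower for 2 and higher for 1. Over all genes it was higher for 34.1% and lower for 30.4% with TMM, and for 6306 and 3099 genes with library totals.

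Of 20 autophagy receptors that bind ATG8 proteins 13 rose and 6 fell in WT, and 8 rose and 9 fell in KO-labelled cells (12 and 7, and 8 and 12, with library totals). All-gene shares with TMM were 36.7% higher and 44.8% lower in WT and 39.4% and 40.3% in KO-labelled cells. The receptor counts with TMM in KO-labelled cells were near that background. The response was higher in KO-labelled cells for 3 receptors and lower for 13, beside 34.1% and 30.4% of all genes. The other lists below did not lean lower to this extent. Higher and lower responses numbered 5 and 3 of 10 fusion and transport factors, and 3 and 2 of 8 kinases and ligases. For 10 transcription factors they numbered 4 and 5. Fam134b, a receptor for the endoplasmic reticulum, went from 15.8 ± 0.38 to 143 ± 2.6 CPM in WT and from 15.4 ± 0.3 to 51.1 ± 1 CPM in KO-labelled cells, and Stbd1, a glycogen-binding receptor, from 9.1 ± 0.72 to 68.7 ± 2.5 and from 3.38 ± 0.31 to 89.5 ± 3.1 CPM. Of 10 fusion and transport factors 2 rose and 8 fell in WT and 3 rose and 7 fell in KO-labelled cells, the same counts with library totals. Fyco1, a kinesin adaptor that binds LC3, fell from 63.4 ± 4.6 to 17.8 ± 0.58 CPM in WT and from 76 ± 1.6 to 39.5 ± 1.3 CPM in KO-labelled cells. Kbtbd7, a ubiquitin ligase adaptor, fell from 15.9 ± 0.85 to 1.68 ± 0.4 CPM in WT and from 14.4 ± 0.36 to 8.5 ± 0.049 CPM in KO-labelled cells. Epg5, a tether for fusion with lysosomes, rose from 46.9 ± 1.6 to 113.9 ± 2.2 CPM in WT and from 47.4 ± 0.3 to 93.3 ± 0.83 CPM in KO-labelled cells.

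Of 8 kinases and ligases that act on ATG8 or ATG4 proteins 2 rose and 3 fell in WT and 3 rose and 4 fell in KO-labelled cells (1 and 6, and 2 and 5, with library totals). The counts with TMM were near the TMM shares of all genes, 36.7% higher and 44.8% lower in WT and 39.4% and 40.3% in KO-labelled cells. Ulk2, an initiating kinase, fell from 53.8 ± 0.45 to 12.6 ± 1.7 CPM in WT and from 55.2 ± 0.63 to 37.2 ± 0.96 CPM in KO-labelled cells, and Nek9, a kinase that binds ATG8 proteins, from 143 ± 1 to 47 ± 0.71 CPM in WT and from 194 ± 7.5 to 120.3 ± 0.93 CPM in KO-labelled cells. Birc6, a ubiquitin ligase for LC3B, fell from 234 ± 8.3 to 166 ± 19 CPM in WT and from 209.5 ± 0.85 to 106 ± 8.7 CPM in KO-labelled cells. Of 10 transcription factors of autophagy genes 6 rose and 4 fell in WT and 5 rose and 4 fell in KO-labelled cells (5 and 5, and 3 and 5, with library totals), to be read beside the same all-gene shares. Ddit3 (CHOP), a stress factor, went from 27.3 ± 1.1 to 1008 ± 8.7 CPM in WT and from 17.7 ± 0.47 to 788 ± 5.4 CPM in KO-labelled cells. Foxo4 fell from 32.1 ± 0.11 to 4.49 ± 0.43 CPM in WT and from 25.5 ± 0.79 to 8.75 ± 0.32 CPM in KO-labelled cells. Tfeb, the master factor of lysosomal genes, fell from 21 ± 0.22 to 8.29 ± 0.52 CPM in WT and from 14.7 ± 0.44 to 2.57 ± 0.34 CPM in KO-labelled cells.

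**Figure D5:**
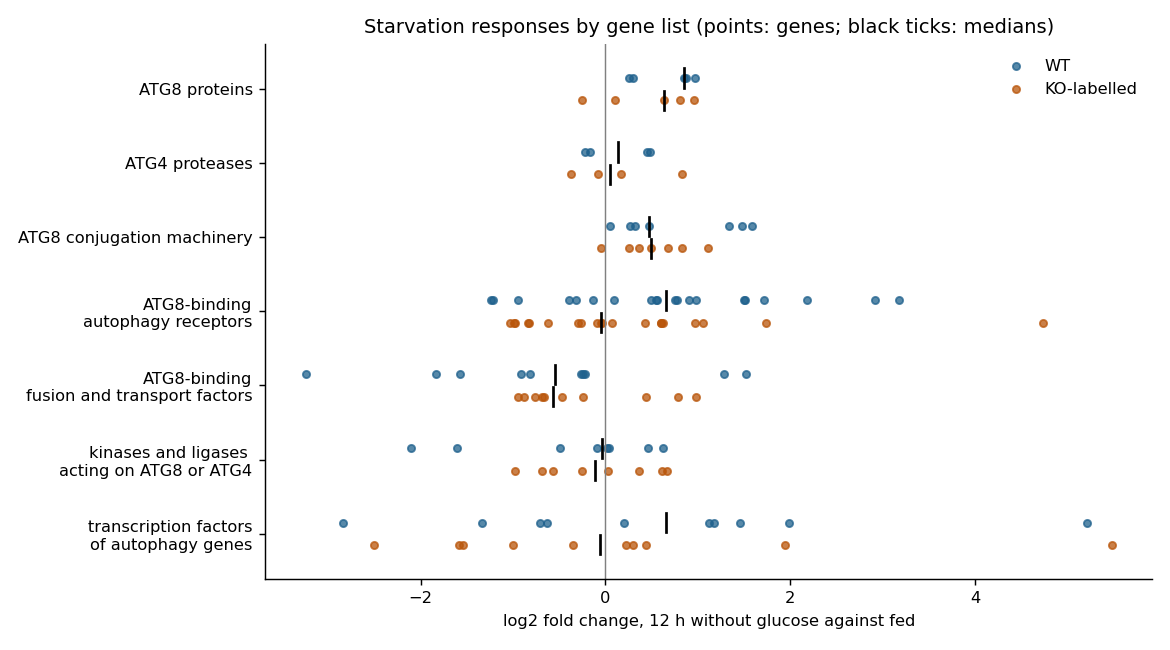
Log2 fold change after 12 h without glucose (horizontal axis) for each tested gene of 7 lists, in WT and KO-labelled cells; points are genes and black ticks are medians. The ATG8 genes have medians of 0.85 in WT and 0.63 in KO-labelled cells, the conjugation genes 0.47 and 0.49, and the receptors 0.66 and -0.05.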

How the data were processed

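RNA sequencing counts of 8 mouse embryonic fibroblast libraries were used. The authors deposited a single table of 31055 RefSeq transcript rows that holds raw whole-number counts. Build mm9, TopHat2 2.0.9 and bedtools are named, without roles, per the submitters' processing notes. The sources used here do not give strand, filters or the treatment of multiply mapped reads. A further 4 columns of values matched no labelled sample and were not used. Groups and replicate numbers came from the sample titles.

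Each symbol was represented by its row of greatest summed count. For the 2 members with several rows, the second row held 99.67% (Map1lc3a) and 98.26% (Atg4c) of the first. All 14418 genes kept by filterByExpr entered 1 fit in edgeR 4.0.16 (R 4.3.3), with TMM scaling, a coefficient for each group and 4 residual degrees of freedom. Its quasi-likelihood test was adjusted by Benjamini-Hochberg, with calls at 0.05. Standard errors were taken as the size of the log2 fold change divided by the root of F, and 95% intervals use the t distribution with the fit's total degrees of freedom. The fit was tested on simulated data. CPM are counts per 1000000 of the TMM-adjusted total, and correlations used log2 of CPM plus 0.5. Per-kilobase levels used GENCODE M21 lengths matched by RefSeq accession. Near-identical copies were sought with BLAST among GENCODE transcripts. Upstream sequences are from RefSeq, GRCm38.p6. Depth limits precision most for Atg4c and Atg4a, with 242 to 855 counts per library; intervals cover the fitted spread between libraries.

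The members and gene lists were chosen with earlier results of these data known. Named beside the members were, by rule, the 2 genes most correlated with each and, from each list, the 2 with the largest called change in each starvation comparison; other genes were named after their values were seen. Alternatives were library totals, DESeq2 1.42.0, no filter, a minimum of 5 CPM, summed or lowest rows per symbol, fits of 2 groups only, a replicate block, and leaving out each library. No pair of replicates was a duplicate: their chi-square over genes was 3.37 to 6.21 times its degrees of freedom.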

Additional observations from a re-analysis of the deposited data

Results flagged for a closer look

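The starvation response of 5 members differed between KO-labelled and WT cells by the interaction test over all genes (edgeR, adjusted p under 0.05). On the log2 scale, KO-labelled minus WT, the difference was -0.74 for Map1lc3b, -0.55 for Gabarapl2, -0.32 for Atg4b, 0.38 for Atg4d and 0.37 for Map1lc3a. Some of these calls changed when 1 library was left out or the scaling was changed. Each such fit was also scaled anew, and leaving out a starved WT library moved comparisons that do not include it. For starvation in KO-labelled cells, Gabarapl2 was -0.304 without starved WT replicate 1 and -0.303 without replicate 2, below its main value. Map1lc3a was 0.12 (adjusted p = 0.153) without starved WT replicate 2, Atg4d was 0.2 (adjusted p = 0.092) without starved WT replicate 1, and Atg4b was -0.12 (adjusted p = 0.186) with library totals and -0.49 without starved WT replicate 1. A called difference was common, at 34.1% of all genes higher and 30.4% lower. Genotype and sex of the cells cannot be told apart in it.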

How the results depend on the processing

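Of the recomputed member values 662 kept their direction and their side of the threshold, 14 lost and 13 gained a call, and 22 turned direction. Scaling mattered most: 19 of 45 values changed with library totals, 5 with DESeq2, 3 with a minimum of 5 CPM, 9 without starved WT replicate 2, 5 without starved WT replicate 1, and 0 with no filter, summed rows or the lowest row. Fits of 2 groups, which give no interaction, changed 0 of 36; leaving out any other library changed 0 to 3. Leaving out a library also meant that the rest were scaled anew, and the cause of these changes was not tested. With library totals starvation raised 3 and lowered 4 members in WT, lowered 4 in KO-labelled cells, 5 were higher in starved KO-labelled than WT cells and 4 had a higher response. Values that turned with library totals were, for starvation in WT, Map1lc3a (-0.1997), Gabarapl2 (-0.16) and Atg4d (-0.00835); for starvation in KO-labelled cells, Map1lc3b (-0.15) and Atg4b (-0.091); between fed groups, Atg4c (0.025); between starved groups, Gabarap (0.115) and Atg4a (0.21); and for the interaction, Gabarap (0.14), Gabarapl1 (0.19) and Atg4a (0.00413). With DESeq2, Atg4c between starved groups turned to -0.00625. Leaving out 1 library gave ranges of -0.21 to 0.00762 for Atg4a in WT starvation and -0.15 to 0.023 for the Gabarapl1 interaction, and, for Atg4c, of -0.19 to 0.074 in KO-labelled starvation, -0.24 to 0.032 between fed groups, -0.045 to 0.14 between starved groups and -0.018 to 0.296 for the interaction. Gabarapl2 between fed groups ran from -0.0196 to 0.092. The interaction counts also moved when 1 library was left out. There a lone library is assumed to vary like the other groups, and no all-gene share was computed. With the replicate number as a replicate block 7, 8, 6, 7 and 5 members were called in the 5 comparisons, as without it, and no member's call changed. Same-numbered libraries of different groups did not deviate together (r = -0.026 to 0.0205 across genes). Counts of 242 to 855 per library limit Atg4a and Atg4c most.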

Other observations

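The GC content of the 250 bases before the start was looked at after the starvation differences were known. The 4 members with a called difference and a window (Map1lc3b, Gabarapl2, Atg4b and Atg4d) had 69.6%, 57.2%, 78% and 60.4% G and C, and Gabarap and Gabarapl1, with no called difference by the edgeR fit, had 46.4% and 46.8%. Both were called lower without starved WT replicate 1 (-0.16 and -0.15) or replicate 2 (-0.22 and -0.13) and higher with library totals (0.14 and 0.19), and Gabarap also lower with DESeq2 (-0.16) and a minimum of 5 CPM (-0.13), so the contrast between these genes depends on the processing. Atg4a, also without one, had windows of 38% and 52.4%, and Atg4c windows of 42.8% and 62.8%. Among 8301 tested genes with a single window, the difference was called for 55.7% of 1246 genes under 50% G and C, 63.4% of 2850 genes from 50 to 60% and 69.9% of 4205 genes at 60% or more. Read depth and expression level were not matched between these classes.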
